A study of Mus musculus with 5 samples.

Results

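Oxidative phosphorylation genes are described here in single cells sorted from the aortic arch of mice with induced atherosclerosis. The members are the 101 genes of the count tables, out of 26189, whose names mark them as subunits of respiratory complexes I, III and IV or of the ATP synthase, which is called complex V. Names starting with Ndufa, Ndufb, Ndufc, Ndufs, Ndufv, Uqcr, Cox4 to Cox8 and Atp5 gave 88 nuclear-encoded genes. Names starting with mt-Nd, mt-Cyt, mt-Co and mt-Atp gave 13 genes of the mitochondrial genome. Of the nuclear members, 77 encode subunits and 11 do not. The latter are 8 complex I assembly factors (Ndufaf), Ndufa4l2, Cox7a2l and Atp5s. Complex I holds 44 nuclear and 7 mitochondrial members, complex III 8 and 1, complex IV 19 and 3, and complex V 17 and 2.

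Oxidative phosphorylation passes electrons from nutrients to oxygen through complexes in the inner mitochondrial membrane, which pump protons, and ATP synthase uses the proton gradient to make ATP. Complex I takes electrons from NADH, complex III passes them to cytochrome c and complex IV hands them to oxygen. The mitochondrial genome encodes the core membrane subunits, transcribed as long RNAs that are then cut into single messengers. The remaining subunits are made from nuclear genes and imported, so each of these complexes is assembled from products of both genomes. Contractile cells such as vascular smooth muscle need ATP for force and ion transport, while immune cells change their reliance on respiration as they become activated.

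The cells came from female mice given 1 intraperitoneal dose of an AAV vector that induces atherosclerosis, at an age of 12 weeks, followed by 18 weeks of Western diet. The groups were C57BL/6J wild-type mice and mice with the Saa3 allele C57BL/6N-Saa3tm1.1(KOMP)Vlcg, which the labels call littermates. Both groups received vector and diet, so the data hold no healthy control. Live cells positive for CD45, the surface protein of blood-derived cells, were sorted, given 1 sample tag per genotype and captured with the BD Rhapsody system. The number of mice in each tag pool is not given in the labels. A further 4 samples of cultured macrophages were not analysed here.

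Tag pools are called here by the names of the tables that hold them. Transcripts of the targeted gene go against these names: Saa3 had 1079 molecules in the kept cells of the pool labelled wild-type and 1268 in those of the pool labelled Saa3-/-. How much of Saa3 the allele removes, and whether these molecules come from outside the deleted part, was not tested. In each pair of values below, the pool labelled wild-type comes first and the pool labelled Saa3-/- second.

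Cells with more than 25% of their molecules from mt- genes were left out, 56 of 889 and 31 of 854. The kept 833 and 823 cells had medians of 6415 and 4698 molecules. The highest kept cell was at 24.59% and the lowest removed cell at 25.29%. The 13 mitochondrial members are all of the mt- genes in the tables, so this limit acts on the mitochondrial part itself and removes its upper tail. No cell index occurred in both tables. In the kept cells the nuclear members gave 130098 molecules, 1.04% of all, and the mitochondrial members 739910, or 5.91%. No member was at 0, 8 nuclear members had under 100 molecules and 67 had at least 500.

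Cell types were gated with 6 markers each for 14 types, none of them a member. Macrophages (190 and 126 cells), T cells (76 and 93), B cells (37 and 79), fibroblasts (53 and 46) and smooth muscle cells (98 and 64) had enough cells in both pools, 20 or more, to be compared. A further 307 and 306 cells stayed ungated. In each of these 5 types and in both pools, all 6 of its own markers were found. Fibroblasts and smooth muscle cells are not blood-derived, and Ptprc, the gene of CD45, was low in them. Its level was 1.09 and 0.660 molecules per 10000 in fibroblasts and 0.961 and 1.61 in smooth muscle cells, against 8.09 to 16.8 in the 3 immune types. Markers of smooth muscle summed to 348 and 306 molecules per 10000 in smooth muscle cells, to 11.1 and 13.3 in fibroblasts and to between 6.51 and 8.28 in macrophages, T cells and B cells. That last, nearly even level stands beside every low value below, and its part in those values was not tested.

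Promoters of the nuclear members were read from RefSeq on GRCm38.p6, from 250 bases before to 50 bases after the annotated start. An entry was found for 73 of the 88 nuclear members. They were searched on both strands for 3 motifs: CGCATGCG, the core bound by nuclear respiratory factor 1, CCGGAAGT, a motif of ETS factors, and AAGATGGC, a motif of YY1. The first was in 11 members, 15.1%, against 2.07% of all genes with an entry. The second was in 5 members, 6.85%, against 4.31% of genes, and the third in 11 members, 15.1%, against 3.19%. At least 1 of the 3 was in 34.2% of members and in 9.03% of genes. A match is a description of the letters and not evidence of binding.

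The promoters of 4 members are shown because these genes were called higher in smooth muscle cells below and differ in their motifs. All are written 5′ to 3′ on the gene's strand with motif matches in capitals. Ndufc1, an accessory subunit of complex I, has the YY1 letters (chr3:51408906-51409205, minus strand). Ndufa11, another accessory subunit of complex I, has the nuclear respiratory factor 1 core (chr17:56717512-56717811, plus strand). Uqcr11, a small subunit of complex III, has that core and the ETS letters (chr10:80406772-80407071, minus strand). Ndufs5, a complex I subunit, has no match in this window (chr4:123718137-123718436, minus strand).
Ndufc1: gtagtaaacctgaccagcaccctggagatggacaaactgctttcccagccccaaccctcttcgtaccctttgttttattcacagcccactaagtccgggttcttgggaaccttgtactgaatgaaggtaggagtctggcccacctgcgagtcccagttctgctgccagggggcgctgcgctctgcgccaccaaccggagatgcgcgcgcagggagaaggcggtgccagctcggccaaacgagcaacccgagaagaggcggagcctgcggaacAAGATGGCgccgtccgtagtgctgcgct
Ndufa11: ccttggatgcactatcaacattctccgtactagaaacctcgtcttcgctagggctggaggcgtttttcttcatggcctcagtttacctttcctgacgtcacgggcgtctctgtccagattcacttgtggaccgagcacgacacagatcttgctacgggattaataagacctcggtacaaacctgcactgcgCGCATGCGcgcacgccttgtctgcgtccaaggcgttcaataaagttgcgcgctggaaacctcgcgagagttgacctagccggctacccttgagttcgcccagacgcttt
Uqcr11: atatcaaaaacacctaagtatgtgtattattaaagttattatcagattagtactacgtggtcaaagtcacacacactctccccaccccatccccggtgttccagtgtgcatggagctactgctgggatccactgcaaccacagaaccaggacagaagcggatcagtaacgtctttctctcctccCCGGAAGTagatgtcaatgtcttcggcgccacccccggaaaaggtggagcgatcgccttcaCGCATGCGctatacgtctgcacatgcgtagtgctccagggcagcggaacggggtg
Ndufs5: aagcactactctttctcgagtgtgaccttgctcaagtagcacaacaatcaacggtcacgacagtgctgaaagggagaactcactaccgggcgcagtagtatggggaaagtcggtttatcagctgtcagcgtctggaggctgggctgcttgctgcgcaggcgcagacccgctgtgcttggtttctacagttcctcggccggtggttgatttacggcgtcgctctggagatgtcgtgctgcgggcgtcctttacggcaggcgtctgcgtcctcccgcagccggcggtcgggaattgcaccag
Among members called higher in smooth muscle cells, 4 of the 14 with an entry had any of the 3 motifs, 28.6%. Among those called lower in B cells it was 2 of 10. Both shares are below the 34.2% of all members with an entry.

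The level of the nuclear part, in molecules per 10000 molecules that are not from mt- genes, was highest in smooth muscle cells at 141.4 and 141.1. T cells followed with 129.9 and 106.3, macrophages with 108.0 and 107.5, fibroblasts with 94.4 and 91.6, and B cells with 84.0 and 85.5. The value of the T cells in 1 pool lay above the macrophages and in the other pool below them, so these neighbours did not differ beyond the spread of the pools. For every other pair of these types, the values of the pools did not overlap. These values are from molecules summed over the cells of a type and pool. By the median over cells, macrophages at 101.4 and 90.0 overlapped fibroblasts at 90.4 and 93.0. The exact 95% intervals, which cover counting error only, ran from 138.7 to 144.2 and from 137.6 to 144.6 in smooth muscle cells and from 79.3 to 89.1 and from 82.1 to 89.1 in B cells. Neutrophils, with only 7 and 13 cells, were at 57.4 and 52.3, and monocytes, with 19 and 13 cells, at 120.6 and 117.6.

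The level of the mitochondrial part, in percent of all molecules, had another order. Smooth muscle cells were again highest with 9.12% and 9.33%. B cells, lowest in the nuclear part, came next with 8.17% and 7.31%. T cells had 5.65% and 6.04%, fibroblasts 5.52% and 5.71%, and macrophages 5.20% and 5.52%. The values of T cells and fibroblasts overlapped, and the upper value of the macrophages met the lower value of the fibroblasts, so these 3 types were not separated in that order. The log2 ratio of macrophages to T cells was -0.12 and -0.13 in the mitochondrial part (mean -0.13, SD 0.009, n = 2 pools) and -0.27 and 0.02 in the nuclear part (mean -0.12, SD 0.20, n = 2 pools). Neutrophils had 1.105% and 1.248%. As a ratio, B cells held 10.6 and 9.23 mitochondrial molecules for each nuclear one, smooth muscle cells 7.09 and 7.30, fibroblasts 6.19 and 6.62, macrophages 5.08 and 5.43, T cells 4.61 and 6.05, and neutrophils 1.95 and 2.42. Values are shares of a cell's captured molecules, so a lower share and more of other RNA cannot be told apart. The molecules of cytosolic ribosomal protein genes were 14.1% and 15.4% of the total in B cells and 12.9% and 13.1% in T cells. They were between 6.6% and 7.9% in the other 3 types.

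**Figure D1:**
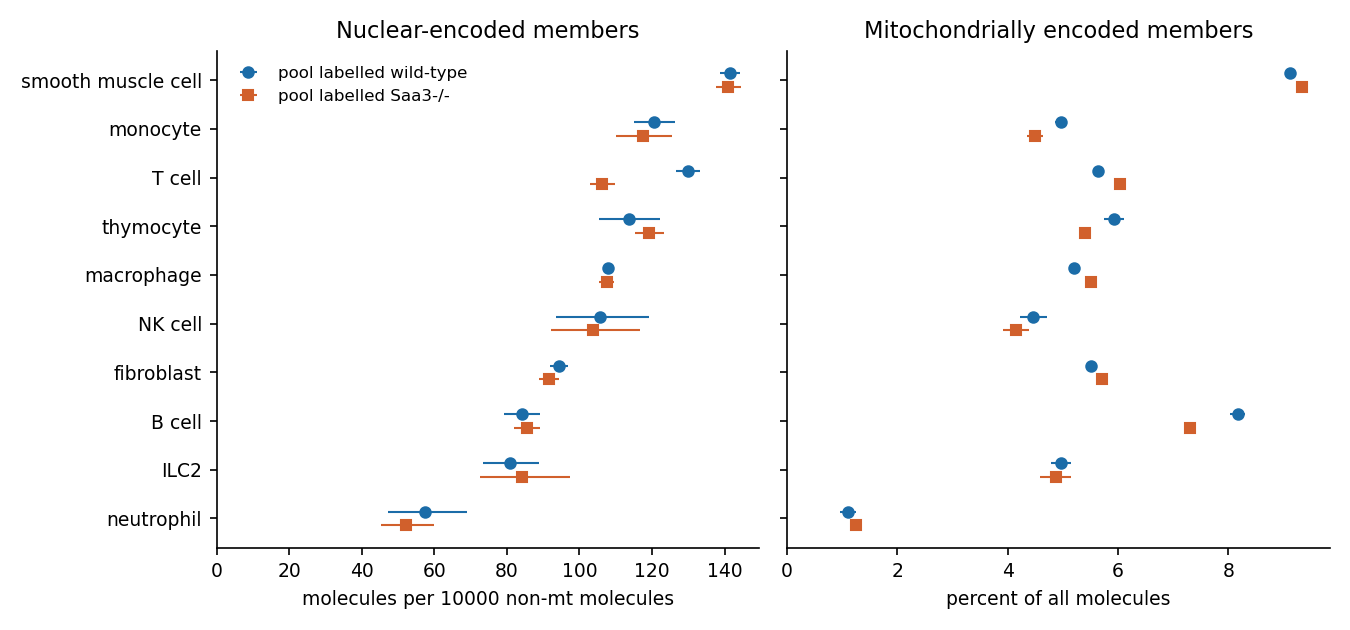
Nuclear-encoded members per 10000 molecules outside mt- genes (left) and mitochondrially encoded members in percent of all molecules (right), for each type with at least 5 cells in both pools. Points are pools and bars are exact 95% counting intervals; smooth muscle cells are highest on both sides, B cells are high on the right and low on the left, and neutrophils are lowest on both sides.

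Across the cells of 1 type and pool, the mitochondrial percentage and the nuclear level were weakly related, with Spearman's rho between -0.06 and 0.38 over 37 to 190 cells. Both measures are taken from the same cells and depend on their depth. Nuclear levels rest on few molecules in a cell, a median of 24 to 100 per type and pool.

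To compare single members between types, molecules were summed per type and pool and tested with edgeR's quasi-likelihood test, each type against the mean of the other 4, with the pool as a block. A member was called at an adjusted p under 0.05 over all 9589 genes tested and a log2 ratio of at least 1. The filter on low counts left 91 members. Each type has only 2 sums and the pool is a block, so a p-value measures how differences between types vary between these pools. The test also draws the spread of each gene towards that of other genes, and the spread between mice is not measured. In smooth muscle cells 22 members were called higher, where 18.8% of all genes were, and 0 lower, where 13.5% were. In B cells 12 were called lower and 0 higher, with 15.4% and 12% of all genes. In fibroblasts 1 was called higher and 0 lower (19.2% and 9.1% of all genes). In macrophages, with 15.2% and 9.47% of all genes, and in T cells, with 12% and 14.7%, 0 members were called in either direction. The types differ in a large share of their genes, and the 22 and 12 of 91 members are near those shares, so the counts are not in themselves a result about the members.

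The medians were further from those of all genes. In smooth muscle cells the median log2 ratio of the 78 nuclear members tested was 0.64, with 72 above 0, while all genes had a median of -0.01 with 49.4% above 0. By complex it was 0.80 for I, 0.46 for III, 0.53 for IV and 0.37 for V. In B cells the nuclear median was -0.69, with 9 of 78 above 0, beside -0.15 and 44.7% for all genes. By complex it was -0.72 for I, -0.52 for III, -0.61 for IV and -0.56 for V. In macrophages, T cells and fibroblasts the nuclear medians were 0.12, -0.11 and -0.04. These 3 are small. Scaling to totals without mt- genes turned the macrophages to -0.004 and the T cells to 0.16, while DESeq2's size factors turned the fibroblasts to 0.02. The medians of all genes moved along, from -0.04 to -0.17 in macrophages, -0.001 to 0.27 in T cells and -0.009 to 0.05 in fibroblasts. Beside all genes, the nuclear members thus stayed higher in macrophages and lower in T cells and fibroblasts under each scaling. The medians in smooth muscle cells and B cells kept their sign under both scalings.

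The 13 mitochondrial members had a median of 0.81 in smooth muscle cells, with 13 above 0. In B cells it was 0.10, in fibroblasts -0.17, in macrophages -0.28 and in T cells -0.54. These signs held under both other scalings, but the order of the types held only under DESeq2's size factors. Against all genes, the nuclear and mitochondrial parts thus lay on the same side in smooth muscle cells, T cells and fibroblasts. They lay on opposite sides in B cells, with the nuclear part lower, and in macrophages, with the nuclear part higher. Scaling to totals without mt- genes moved the median of all genes in T cells from 0.00 to 0.27, and the genes called there from 1155 higher and 1412 lower to 1753 and 1090. The mitochondrial median of T cells was then -0.27, above fibroblasts at -0.33 and macrophages at -0.41. T cells were thus no longer lowest, although they stayed furthest below the median of all genes. That median was -0.17 in fibroblasts and in macrophages. In percent of all molecules, T cells with 5.65% and 6.04% also lay above macrophages with 5.20% and 5.52%.

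**Figure D2:**
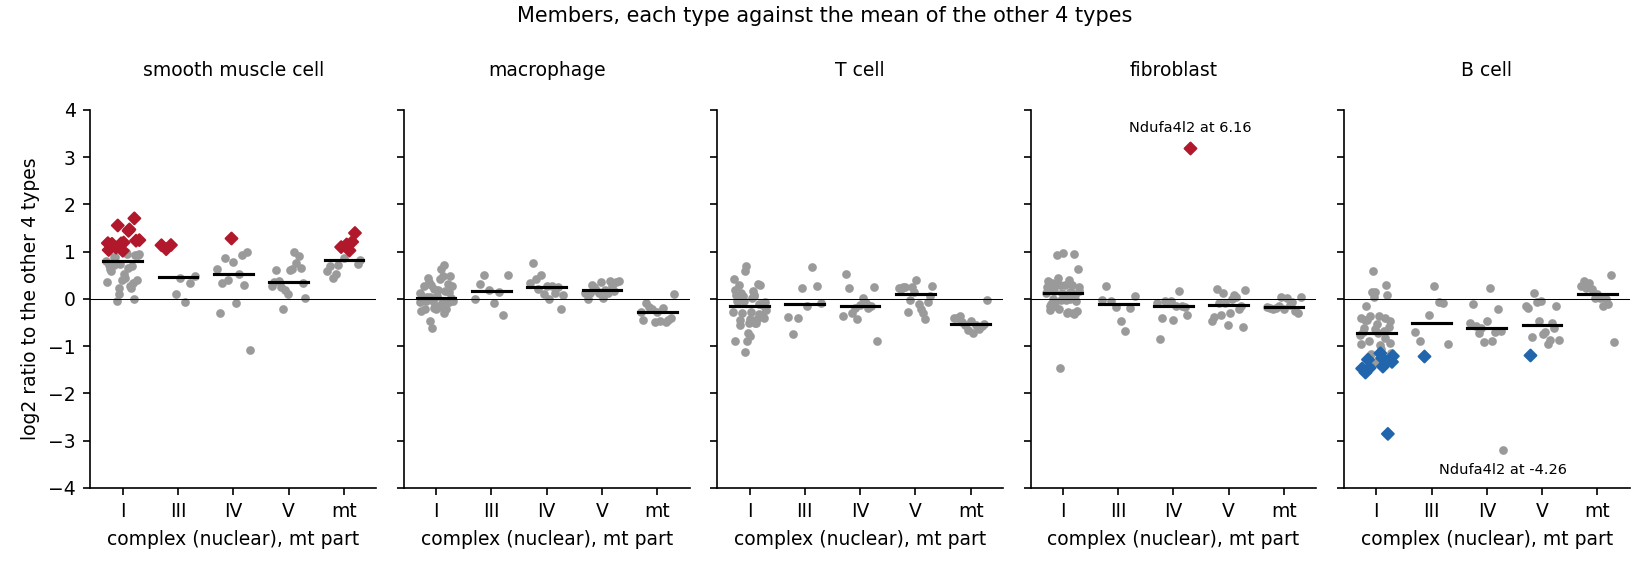
Log2 ratio (edgeR) of every tested member in each type against the mean of the other 4 types, grouped by complex for nuclear members (I, III, IV, V) and together for mitochondrial members (mt). Diamonds are members called and lines are group medians; in smooth muscle cells every group has its median above 0, from 0.37 to 0.81, and in B cells the 4 nuclear groups lie between -0.72 and -0.52. Ndufa4l2 lies outside the axis at 6.16 in fibroblasts and at -4.26 in B cells, where it had 0 molecules in both pools.

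Of the 17 nuclear members called higher in smooth muscle cells, 13 belong to complex I, 3 to complex III (Uqcr10, Uqcr11 and Uqcrb), 1 to complex IV (Cox6c) and 0 to complex V. Ndufs5, an accessory subunit on the intermembrane side of complex I (chr4:123712710-123718202 on GRCm38), was at 1.41 and 1.38 molecules per 10000 in smooth muscle cells. Its level was 0.85 and 0.94 in fibroblasts, 0.65 and 0.63 in macrophages, 0.75 and 0.48 in T cells, and 0.00 and 0.19 in B cells. Both values of the smooth muscle cells lay above all others. In edgeR's test its log2 ratio there was 1.70 (adjusted p = 5.09e-07), the largest among the nuclear members called.

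Ndufc1 (chr3:51404677-51408988) was at 1.20 and 1.29 in smooth muscle cells, 0.75 and 0.65 in macrophages, 0.68 and 0.31 in T cells, 0.54 and 0.52 in fibroblasts, and 0.22 and 0.30 in B cells. Smooth muscle cells were again above every other value, with a log2 ratio of 1.47 in edgeR's test (adjusted p = 3.10e-06). Ndufb9, an accessory subunit in the membrane arm of complex I (chr15:58933756-58939488), was at 1.04 and 1.18 there and between 0.22 and 0.62 in the other types, a log2 ratio of 1.44 (adjusted p = 8.56e-06, edgeR). Ndufaf3, a complex I assembly factor (chr9:108565537-108567434), had the log2 ratio 1.55 (adjusted p = 0.00302, edgeR) on only 25 and 12 molecules in smooth muscle cells. Without the smooth muscle cells labelled wild-type its adjusted p was 0.126 (edgeR), and the call was lost.

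Cox6c, a small membrane subunit of complex IV (chr15:35925886-35938246), was at 7.11 and 6.52 molecules per 10000 in smooth muscle cells. The other types lay between 2.22 and 3.66, with B cells lowest at 2.22 and 2.25. The log2 ratio in smooth muscle cells was 1.30 (adjusted p = 9.27e-10, edgeR). It was the only member of complex IV called there.

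The nuclear member with the most molecules of each complex differed less between types. Ndufa2, a complex I subunit, was at 2.92 and 2.65 in smooth muscle cells and at 1.18 and 1.87 in B cells. Cox7c, a complex IV subunit, was at 6.91 and 6.71 in smooth muscle cells and between 2.92 and 5.08 in the other 4 types. Uqcrh, the hinge subunit of complex III, did not follow this order: it was at 3.59 and 4.10 in smooth muscle cells, 4.14 and 4.97 in T cells, and 2.51 and 4.23 in B cells. Atp5g2, which encodes a copy of the membrane ring subunit of ATP synthase, was at 3.42 and 3.83 in smooth muscle cells and 5.26 and 3.84 in T cells. None of these 4 was called in any type by edgeR's test at the log2 limit of 1.

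Of the 12 members called lower in B cells, 10 belong to complex I, 1 to complex III (Uqcrb) and 1 to complex V (Atp5c1). Ndufs5 gave 0 and 5 molecules in B cells, where 517 were counted in the other 4 types. The ratio of its level in B cells to that in the other types, over both pools, was 0.151 with an exact counting interval of 0.0489 to 0.356. The log2 ratio of -2.86 (adjusted p = 2.81e-05, edgeR) depends on how a sum of 0 is handled and is no bound. In the transcripts of GENCODE release 21, 21.7% of the 50-base stretches of Ndufs5 also occur in BC002163, and how molecules that match both were counted is not stated, so its level is uncertain in every type. In all, 44 nuclear members share such stretches with other genes, so this limit is not particular to Ndufs5. The shares were larger in Atp5g2 (38.35%), Uqcrb (25.4%) and Cox7c (22.1%).

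Ndufa5, a subunit of the complex I matrix arm, had 1 and 9 molecules in B cells, 0.07 and 0.34 per 10000, beside 0.45 and 0.46 in macrophages and 0.90 and 1.107 in smooth muscle cells. Its log2 ratio in B cells was -1.56 (adjusted p = 0.00695, edgeR), and without the sum of the B cells labelled wild-type the adjusted p was 0.160. Ndufa12, Ndufab1, Ndufc1 and Ndufv2, all complex I subunits, had log2 ratios of -1.47, -1.46, -1.43 and -1.34 in B cells. All 4 calls were lost without the B cells labelled Saa3-/-, with adjusted p of 0.0656, 0.144, 0.0571 and 0.0692 (edgeR), and that of Ndufc1 also without those labelled wild-type, at 0.106. Ndufab1, the mitochondrial acyl carrier protein, was at 0.44 and 0.30 in B cells and between 0.69 and 1.52 elsewhere. Ndufv2, an iron-sulfur subunit near the NADH site, was at 0.44 and 0.37 in B cells and between 0.74 and 1.31 elsewhere. For both, the B cells did not overlap any other type. All B cell values rest on few molecules, 296 and 592 for the 44 nuclear members of complex I together. Without the B cells labelled wild-type 8 members were called lower there, and without the T cells labelled Saa3-/- it was 20.

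Within the mitochondrial part, the members did not shift alike in smooth muscle cells. Mt-Nd4l, a core membrane subunit of complex I, was at 14.8 and 15.3 molecules per 10000 of all molecules in smooth muscle cells. The other types lay between 5.15 and 8.01, so the groups did not overlap, and the log2 ratio was 1.39 (adjusted p = 4.48e-13, edgeR). The other members called higher were mt-Nd4 (1.21), mt-Nd2 (1.15), mt-Cytb (1.10) and mt-Nd3 (1.02), of which mt-Cytb is the core subunit of complex III and the rest belong to complex I. Without the smooth muscle cells labelled wild-type mt-Cytb was at 0.988 and mt-Nd3 at 0.984, and without the macrophages labelled wild-type mt-Nd3 was at 0.998, all just under the limit. Not called at the log2 limit of 1 were mt-Nd1 (0.87), mt-Nd6 (0.81), mt-Nd5 (0.74), the complex IV subunits mt-Co3 (0.72), mt-Co2 (0.52) and mt-Co1 (0.44), and the complex V subunits mt-Atp8 (0.69) and mt-Atp6 (0.59).

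As a share of the mt- molecules, which does not depend on the nuclear genes, complex I made up 35.0% and 36.0% in smooth muscle cells and 27.0% to 31.1% in the other types and pools. Complex IV made up 41.4% and 41.0% there and 46.0% to 52.3% in the others. Mt-Co1, the catalytic subunit of complex IV, took 22.8% to 23.5% of mt- molecules in smooth muscle cells and 26.6% to 31.4% elsewhere. Mt-Nd4 took 11.02% to 11.2% beside 7.42% to 9.38% elsewhere, and mt-Cytb 12.0% to 12.5% beside 8.53% to 11.7%. The shares of mt-Nd2, mt-Nd3, mt-Nd4, mt-Nd4l and mt-Cytb in smooth muscle cells lay above all other values, those of mt-Co1, mt-Co2 and mt-Atp6 below, and those of mt-Nd1, mt-Nd5, mt-Nd6, mt-Co3 and mt-Atp8 overlapped the others. Along the mitochondrial chromosome, mt-Nd2 (chrM:3914-4951) lies before mt-Co1 (chrM:5328-6872), and mt-Nd3 (chrM:9459-9806) lies after mt-Atp6 (chrM:7927-8607), so members with a higher share were found on both sides of those with a lower one.

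Cells left out by the 25% limit had a mitochondrial make-up close to that of smooth muscle cells, with complex I at 36.3% and 35.2% and complex IV at 40.9% and 41.0% of mt- molecules. Of these 87 cells, 13 were gated as smooth muscle, 2 as T cell or thymocyte and 72 were ungated. Over both pools they carried 162 molecules of smooth muscle markers per 10000 outside mt- genes, and the 72 ungated ones 91.4. Within smooth muscle cells, the complex I share was 36.0% in the 63 cells with at least 10% mt- molecules and 34.9% in the 99 cells below. In macrophages these values were 28.8% in 19 cells and 27.5% in 297, in B cells 29.2% in 21 and 28.0% in 95, and in fibroblasts 28.9% in 10 and 30.9% in 89. In T cells they were 32.8% in only 2 cells and 28.3% in 167, with complex IV at 42.4% and 49.6%. The split at 10% was chosen after the data were seen.

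**Figure D3:**
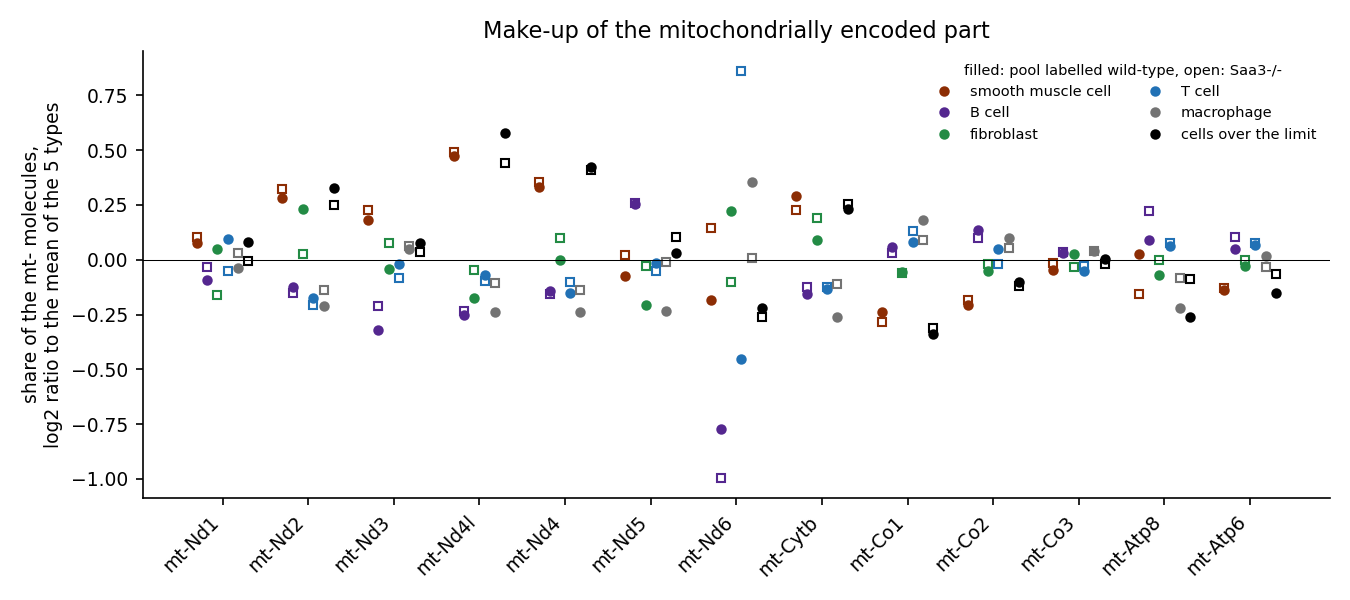
Share of each mitochondrial member among the mt- molecules, as the log2 ratio to the mean of the 5 types, by type and pool (filled, pool labelled wild-type; open, pool labelled Saa3-/-) with the cells over the 25% limit in black. Smooth muscle cells and the cells over the limit lie above 0 for mt-Nd2, mt-Nd3, mt-Nd4l, mt-Nd4 and mt-Cytb and below 0 for mt-Co1, mt-Co2 and mt-Atp6.

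Counting limits the comparison of single mitochondrial members. By annotation mt-Atp8 and mt-Atp6 share 43 bases, mt-Nd4l and mt-Nd4 share 7, mt-Atp6 and mt-Co3 share 1, and mt-Nd5 and mt-Nd6 share 14 on opposite strands. Over 50% of the 50-base stretches of 7 mitochondrial members also occur in annotated nuclear copies, which have no column in the tables. For mt-Co2 it was 100%, and for mt-Nd4l 98.8%. How molecules with several matches were counted is not stated.

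Several complex IV subunits have a broad and a tissue-restricted isoform, and these data hold both kinds. Ndufa4l2, a paralogue of the complex IV subunit Ndufa4 that is known as a hypoxia target (chr10:127514967-127517154), gave 32 and 30 molecules in fibroblasts, 0.54 and 0.60 per 10000. The other 4 types together held 8 molecules, 6 of them in macrophages. The level in fibroblasts was 40.0 times that in the other 4 types over both pools, with an exact counting interval of 19.1 to 96.7. Over all kept cells Ndufa4l2 had 45 and 59 molecules, in 29 and 29 cells, so some lay outside these types. It is the 1 member called higher in fibroblasts, but it passed the filter on low counts through the fibroblasts themselves, so that call supports nothing. Its paralogue Ndufa4 was at 1.04 and 0.98 in fibroblasts and highest in smooth muscle cells at 2.07 and 2.31.

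Cox4i2, an isoform of the complex IV regulatory subunit 4 (chr2:152754173-152765037), gave 12 and 17 molecules in fibroblasts, 0.20 and 0.34 per 10000, and 15 in the other 4 types. The ratio was 9.98 with a counting interval of 5.18 to 20.0. Over all kept cells Cox4i2 had 26 and 39 molecules, in only 17 and 13 cells, and the interval does not cover the spread between cells. Cox6b2, known from testis, gave 10 and 12 in fibroblasts, 0.17 and 0.24 per 10000, with a ratio of 3.66 (2.02 to 6.53). These ratios were computed after their levels were seen, and the filter on low counts left both genes out of edgeR's test. Cox6a2 and Cox7a1, the isoforms known from heart and skeletal muscle, were rare in the 5 types. Cox6a2 gave 11 and 2 molecules in macrophages, 1 in fibroblasts and 0 in smooth muscle cells, T cells and B cells. Over all kept cells Cox6a2 had 32 and 20 molecules, in 12 and 8 cells, beside 14 in the 5 types. Most of its molecules thus lay in a few cells outside these types. Cox7a1 gave at most 10 in any type and pool. Cox8b gave 1 molecule in the 5 types.

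The broad isoforms were found in all 5 types and both pools. Cox6a1 was at 6.50 and 6.15 in smooth muscle cells and 2.88 and 3.00 in B cells, and Cox4i1 at 5.42 and 4.84 and at 3.33 and 2.92. Cox7a2 was at 2.05 and 1.91 in smooth muscle cells and 0.96 and 1.24 in B cells. Cox6b1 was highest in macrophages at 3.76 and 3.77, and Cox8a ranged from 2.76 to 4.01 over all types. Cox7a2l, a complex IV member not counted as a subunit, was at 2.88 and 4.61 in B cells and 3.05 and 2.60 in smooth muscle cells, an order that depends on the pool. The 3 genes of the same ring subunit of ATP synthase were all present: Atp5g1 ranged from 1.40 to 2.70, Atp5g2 from 2.33 to 5.26 and Atp5g3 from 1.61 to 5.61, with T cells labelled wild-type highest for each. In that pool 5 deep cells held 31.3% of the T cell molecules, as given below, and their part in this order was not tested.

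**Figure D4:**
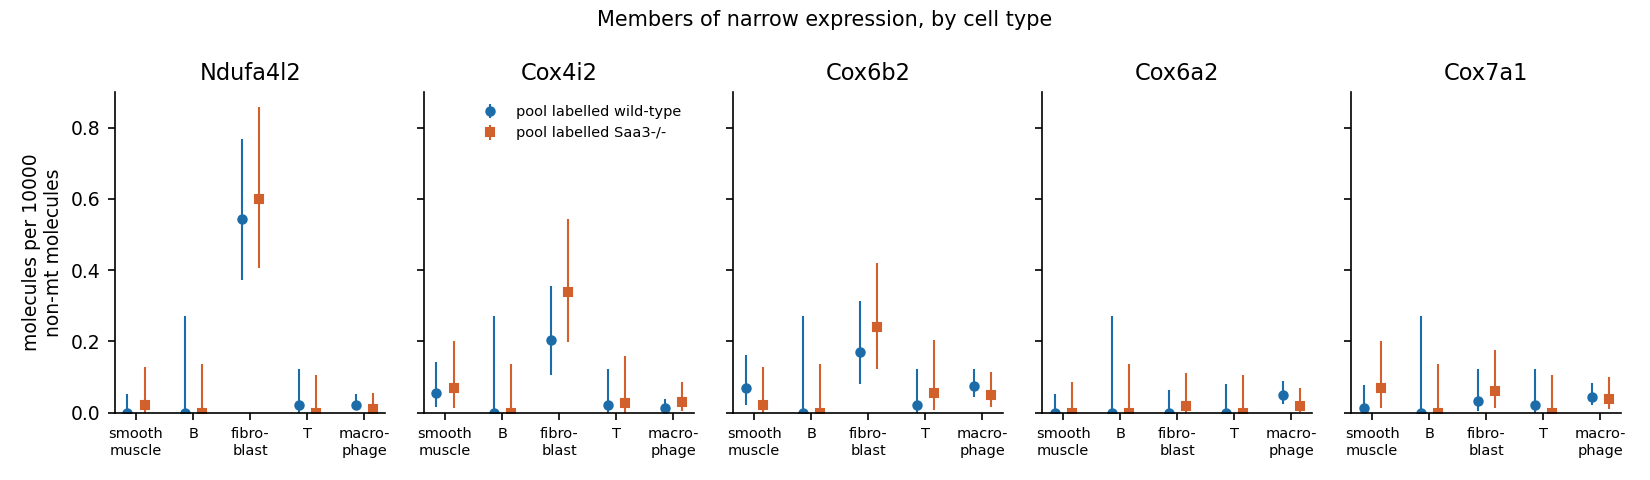
Molecules per 10000 outside mt- genes of 5 members with narrow expression, by type and pool, with exact 95% counting intervals. Ndufa4l2, Cox4i2 and Cox6b2 are highest in fibroblasts in both pools, at 0.54 and 0.60, 0.20 and 0.34, and 0.17 and 0.24. Cox6a2 and Cox7a1 stay near 0 in each of the 5 types shown.

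Other mitochondrial genes were read from lists named for their roles. Complex II, which feeds electrons from succinate and has no mitochondrial subunit, had 4 of 4 genes above 0 in smooth muscle cells and macrophages. The medians were 0.32 and 0.57. Of these 4 genes only Sdhc was called, higher in smooth muscle cells (1.56) and lower in B cells (-2.24). Of all genes, 18.8% and 15.4% were called in these directions. Its level was 1.09 and 1.57 in smooth muscle cells and 0.22 and 0.15 in B cells. Cytochrome c and cytochrome c1 (Cycs, Cyc1) were tested and 0 of 2 were called in any type. Of 13 genes of the tricarboxylic acid cycle, 12 were above 0 in smooth muscle cells with a median of 0.59, and 2 were called higher, Suclg2 (1.82) and Sucla2 (1.61), which encode subunits of the succinyl-CoA ligases. That is near or below the 18.8% of all genes called higher there. Sucla2 was called lower in B cells (-2.01).

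Of 35 assembly factors outside the members' names 20 were tested, and 2 were called higher and 1 lower in smooth muscle cells, 2 and 1 in T cells, 1 and 2 in B cells, and 2 and 0 in fibroblasts. Of all genes, 18.8% and 13.5%, 12% and 14.7%, 12% and 15.4%, and 19.2% and 9.1% were called in these types, so the counts are near or below the background. Taco1, which promotes translation of mt-Co1, was called higher in T cells (3.08) at 0.85 and 1.31 molecules per 10000, and lower in smooth muscle cells (-1.92) at 0.06 and 0.05. Cox10 was called higher in T cells (1.36). In B cells Surf1 was called lower (-1.81) and Foxred1 higher (1.57), but Foxred1 had 0.07 and 0.75 in B cells and rests on the pool labelled Saa3-/-. Among 9 tested genes of mitochondrial DNA expression 1 was called, Polg2 in T cells (1.49), an accessory subunit of the mitochondrial DNA polymerase. Of 4 tested regulators of nuclear mitochondrial genes, Nrf1 was called higher in B cells (1.54) and lower in fibroblasts (-1.30), and Gabpa lower in B cells (-1.04). The same shares of all genes stand beside these lists of 9 and 4 tested genes, so single calls are no result about the lists. Nrf1 encodes nuclear respiratory factor 1 and was at 0.59 and 1.35 in B cells and 0.29 and 0.16 in smooth muscle cells.

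Of 7 carriers and pores, Slc25a4, the ADP/ATP carrier of muscle, was at 4.93 and 5.28 in smooth muscle cells and at most 2.60 elsewhere. It was called higher there (2.15) and lower in B cells (-1.30) and macrophages (-1.25). Ucp2, a carrier of the uncoupling protein family, was at 23.3 and 23.5 in macrophages and at most 9.86 elsewhere, called higher in macrophages (2.65) and lower in smooth muscle cells (-1.9996) and fibroblasts (-1.42). Vdac1 (-1.38) and Vdac3 (-1.06), pores of the outer membrane, were called lower in B cells. Of the 7, 1 was called higher and 1 lower in smooth muscle cells (18.8% and 13.5% of all genes). The counts were 1 and 1 in macrophages (15.2% and 9.47%), 0 and 3 in B cells (12% and 15.4%), and 0 and 2 in fibroblasts (19.2% and 9.1%). In a list of 7 genes such counts are no result about the list. Of 67 mitochondrial ribosomal protein genes tested, 7 were called higher in smooth muscle cells (median 0.39) and 7 lower in B cells (median -0.56), among them Mrpl39 (-3.44), Mrpl17 (-2.82), Mrps17 (-2.39) and Mrps12 (-2.05). Of all genes, 18.8% and 15.4% were called in these directions, so neither count is above the background. The first 3 of these had 0 molecules in the B cells labelled wild-type, so their ratios are no bound. The 79 cytosolic ribosomal protein genes went the other way: 77 were above 0 in B cells, with a median of 0.67, and 3 in smooth muscle cells, with a median of -0.43. In B cells 5 of them were called higher and 1 lower, among them Rps27 (1.42), Rps19 (1.108) and Rps27l (-1.42), which is below the 12% and 15.4% of all genes. Rps27rt (1.53) shares its name with Rps27 as a copy of it, and its counts are uncertain. The 2 mitochondrial ribosomal RNAs have no column in the tables.

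The pools were then compared within each type. With 1 pool per label there is no test. The intervals of this comparison cover counting error only and say nothing of differences between mice. As log2 ratios of the second pool to the first, so that a value above 0 is higher in the pool labelled Saa3-/-, the nuclear part was at -0.007 in macrophages (-0.04 to 0.03), -0.003 in smooth muscle cells (-0.05 to 0.04), 0.03 in B cells (-0.08 to 0.13), -0.04 in fibroblasts (-0.10 to 0.01) and -0.29 in T cells (-0.35 to -0.23). The mean over the 5 types was -0.06 (SD 0.13). The mitochondrial part was at 0.09 in macrophages, 0.03 in smooth muscle cells, 0.05 in fibroblasts, 0.10 in T cells and -0.16 in B cells, with a mean of 0.02 (SD 0.10). The nuclear part of T cells had the largest ratio of these 10, and the mitochondrial part of B cells the next. The mitochondrial ratios depend on the scaling: with the trimmed mean ratio of the pools taken as 0, they were -0.046 in B cells, 0.010 in macrophages and -0.014 in smooth muscle cells.

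Single members were compared between pools where they had at least 50 molecules in a type, and a log2 ratio of 0.5 in size was used as the limit. Over the 5 types this gave 352 comparisons, 11 past the limit as higher and 26 as lower. In macrophages 1 of 75 nuclear members was higher and 5 were lower, where 8.62% and 6.85% of all genes were. In smooth muscle cells 0 of 71 were higher and 1 was lower (8.86% and 7.68% of all genes), and in fibroblasts 3 of 62 were higher and 3 lower (10.9% and 10.6%). In B cells 6 of 22 were higher and 1 was lower (12.9% and 11.5%). In T cells 0 of 58 were higher and 16 lower, where 14.7% and 14% of all genes were, and 48 of the 58 were below 0 with a median of -0.34. Of the mitochondrial members 1 was past the limit in any type, mt-Nd6 in T cells with 17 and 35 molecules (1.39).

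In macrophages the lowest ratios were those of Ndufs3 (88 and 25 molecules, -0.67), Ndufs6 (124 and 36, -0.65) and Cox5a (469 and 144, -0.58), and the highest those of Ndufb2 (0.51), Ndufb6 (0.42) and Ndufv3 (0.41). Ndufs3 is a core and Ndufs6 an accessory subunit of complex I, and Cox5a is a subunit of complex IV. Cox5a went the other way in B cells, where 10 and 41 molecules gave the highest ratio of that type (1.02), before Uqcrh (0.75) and Cox7a2l (0.68). The lowest in B cells were Atp5g3 (-0.79), Atp5b (-0.29) and Cox6b1 (-0.25). In fibroblasts Ndufb5 had 64 and 29 molecules (-0.90), followed by Ndufa7 (-0.55) and Cox7b (-0.51), with Ndufb6 (0.68), Uqcr10 (0.55) and Ndufb3 (0.51) at the other end. In smooth muscle cells the range was from -0.77 for Ndufs1 (46 and 16 molecules) to 0.48 for Ndufab1, with Cox5b (-0.43), Ndufb8 (-0.45), Ndufb10 (0.47) and Ndufa6 (0.45) between. Most of these ratios rest on few molecules.

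In T cells the lowest members were Ndufa12, a complex I subunit, with 65 and 22 molecules (-1.17), Atp5j2, a subunit of ATP synthase, with 85 and 29 (-1.17), and Ndufa5 with 44 and 18 (-0.90). The highest nuclear ones were Ndufs1 (0.42) and Cox7a2l (0.42). A few deep cells moved with this difference, and their part in it is given by the values without them. In the pool labelled wild-type, 5 T cells with over 10000 molecules held 31.3% of the T cell molecules and had a nuclear level of 191.1 per 10000, while the other 71 cells stood at 101.7. The pool labelled Saa3-/- had no T cell of that depth and stood at 106.3.

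All 5 of these cells also carried molecules of cell cycle genes. With at least 3 molecules of Mki67, Top2a, Birc5, Ube2c, Cdk1 and Ccna2 taken as cycling, 9 T cells of the pool labelled wild-type were cycling, with a nuclear level of 180.8, and 67 were not, at 99.96. In the pool labelled Saa3-/-, 2 were cycling at 152.7 and 91 were not, at 104.4. Without cycling cells the order of the pools was thus the reverse, and by the same rule in all 5 types the members past the limit went from 11 higher and 26 lower to 14 and 11. The mitochondrial percentage went the other way, at 5.03% in the cycling T cells labelled wild-type and 6.01% in the others. Macrophages had 36 and 5 cycling cells, at 116.9 and 113.6 beside 104.4 and 106.8 in the rest. The rule for cycling cells was chosen after the data were seen.

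**Figure D5:**
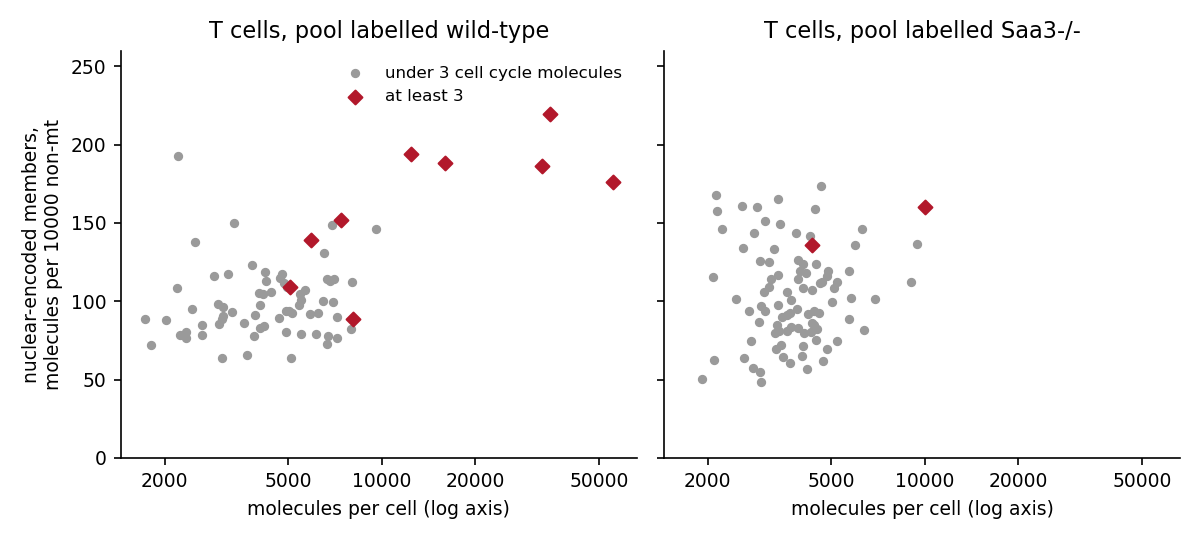
Nuclear-encoded members per 10000 molecules outside mt- genes against molecules per cell (log axis) in T cells of each pool, each point a cell, diamonds cells with at least 3 molecules of the 6 cell cycle genes. The deepest cells of the pool labelled wild-type are mostly diamonds and lie high, and the pool labelled Saa3-/- has no cell over 10000 molecules.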

How the data were processed

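The authors deposited counts of molecules, read by unique molecular identifiers, in 1 table per sample tag; per the file headers they ran the BD Rhapsody pipeline 1.11.1 on GRCm38 with GENCODE release 19. The headers name no normalization and do not say how molecules with several matches or by strand were counted; the kit's strand use is not given in the sources used here. The submitters' processing notes also name R 4.3.1, R 4.4.2 and Seurat 4.3.0. Only the table names tie a tag to a genotype.

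The members, gene lists, markers and rules for named genes were chosen with earlier results of these data known. Cells over 25% mt- molecules were removed. A marker was on in a cell at 0.25 of its high percentile over all cells. A type needed at least 3 markers on and a lead of 2 over every other type, so cells with markers of several types stayed ungated; no doublet caller was run. The pools held 7289593 and 5231922 molecules in kept cells.

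Sums per type and pool were tested with edgeR 4.0.16 (quasi-likelihood, trimmed mean scaling, filter on low counts, pool as block, 4 residual degrees of freedom, Benjamini-Hochberg adjustment) in R 4.3.3; its fit was tested on simulated data. The types of 1 pool come from the same animals and the same capture, which is where the block comes from; the pool differences of the types had correlations of -0.03 to 0.14 across genes. Pools were compared with no test. The nuclear part was taken as log2 ratios of molecules per molecules outside mt- genes and the mitochondrial part per total, both without a pseudocount. Single members were taken as log2 ratios of molecules per total with a pseudocount of 0.5. Intervals are exact (Clopper-Pearson for shares, conditional binomial for ratios), 95%, computed with Python 3.11.15 and scipy 1.17.1, and cover counting error only. Positions, overlaps and shared stretches of 50 bases were taken from GENCODE release 21, which uses the same build GRCm38 as the deposited files, and promoters from RefSeq on GRCm38.p6.

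Named are all mt- members, the isoform sets, up to 6 called members per type, the member with the most molecules of each complex, the 3 highest and 3 lowest pool ratios per type, and up to 4 called genes per list. Other genes named were chosen after their values were seen. Alternatives were other limits on mt- molecules, other gates, equal depth (2000 molecules per cell), equal weight per cell, subunits only, other scalings, filters, limits and pseudocounts, DESeq2 1.42.0, and leaving out each pool. Chosen after seeing the data were a lower threshold for markers, no cycling cells, and leaving out each sum of a type and pool. The gene carried by the vector is not reported here.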

Additional observations from a re-analysis of the deposited data

Results flagged for a closer look

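The pool ratio of the mitochondrial part lay on different sides of 0 in different cell types, and these ratios were small and moved with the scaling. Given as log2 ratios on totals, it was lower in the pool labelled Saa3-/- in B cells at -0.16. It was higher in T cells at 0.10, in macrophages at 0.085, in fibroblasts at 0.051 and in smooth muscle cells at 0.034. The counting intervals of all 5 ratios left out 0, but with 1 pool per label the difference between types was not tested. Taking the trimmed mean ratio of the pools as 0 gave -0.046 in B cells, 0.064 in T cells, 0.010 in macrophages, 0.058 in fibroblasts and -0.014 in smooth muscle cells. The sign changed in 3 of 11 settings in fibroblasts and in smooth muscle cells, in 1 of 11 in B cells and in T cells, and in 0 of 11 in macrophages. The B cell values stand beside pools of 37 and 79 cells and cytosolic ribosomal shares of 14.1% and 15.4%, whose part in the ratio was not tested.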

How the results depend on the processing

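Members called between types numbered 35 (23 higher and 12 lower). Lowering the log2 limit to 0.5 gave 113. With no replicate block, that is without the pairing by pool, it was 35, the same members and types. Leaving out 1 sum of a type and pool gave 34 to 46. A higher threshold for markers gave 35 members higher in smooth muscle cells and 6 lower in B cells, beside 22 and 12. The 37 members past the limit between pools became 17 at equal depth, 65 with at least 20 molecules and 4 at a log2 limit of 1.

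The mitochondrial log2 ratio of macrophages to T cells, -0.13, was -0.154 with no limit on mt- molecules, -0.137 at 15%, -0.061 with the higher threshold for markers, -0.051 at equal depth, -0.193 with a lower one, -0.152 without cycling cells and -0.074 with every cell weighing the same; the cause was not tested. By pool it ran from -0.132 to -0.119. The nuclear ratio ran from -0.27 to 0.02. Recomputed main values stayed within the spread or within 1.5 times in 72 cases and moved further in the 11 given above. Of 14 ratios between pools or between macrophages and T cells, 12 had the other sign in at least 1 setting, 27 times in 157. The mean of the nuclear pool ratios, -0.06, was 0.006 at equal depth and 0.010 without cycling cells, and that of the mitochondrial ones, 0.02, was -0.009 at equal depth. The nuclear ratio of T cells, -0.29, was 0.06 without cycling cells. The trimmed mean scaling of the mitochondrial pool ratios was added after the data were seen.

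Over all settings, calls of named members were lost 23 times and gained 2 times. Ndufc1 in B cells and mt-Nd3 in smooth muscle cells lost their calls in 5 settings each, and Ndufa12, Ndufab1 and Ndufv2 in B cells in 3 each. Depth limits the B cells most, with 143800 molecules of tested genes in the smaller sum against 2295600 in the largest.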
